A study of Saccharomyces cerevisiae with 2 samples.

Results

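The 5S rRNA, the smallest RNA of the large ribosomal subunit, was followed nucleotide by nucleotide for contacts of Puf6 in living yeast. All 121 nucleotide rows of the gene RDN5-1 were taken, out of 9464 rows in the 3 deposited pileup tables. Contacts were measured by CRAC, in which ultraviolet light cross-links a tagged protein to RNA, the complex is purified under denaturing conditions, and the bound fragments are read as cDNAs. The cells were growing Saccharomyces cerevisiae in rich medium whose genomic PUF6 gene carried a C-terminal His6-TEV-ProtA (HTP) tag. There was 1 condition with 2 libraries described, and the tables hold 1 of them, without saying which. No spread between libraries can be given, no library from untagged cells was analysed here, and intervals cover counting error only. Whether the 5S signal is a contact of Puf6 or background was therefore not tested. The text of the paper names no contact site in the 5S rRNA.

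Puf6 is a PUF family protein, a family of RNA-binding proteins built from helical repeats, and it acts in assembly of the large subunit. The 5S rRNA is made by RNA polymerase III, apart from the other rRNAs, and enters the pre-ribosome as a particle with the ribosomal proteins Rpl5 and Rpl11, with help from the assembly factors Rpf2 and Rrs1. Its fold is a junction of 3 arms at loop A. Helix I joins the ends of the RNA, helices II and III lead to the hairpin loop C, and helices V and IV, with the internal loop E between them, lead to the hairpin loop D. This textbook fold was drawn onto the yeast sequence with 39 base pairs, all of them G-C, A-U or G-U.

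All 121 nucleotides of the table were identical to RDN5-1 (YNCL0018W) of the R64 genome, a non-coding RNA gene on the plus strand of chromosome XII from 459676 to 459796. The whole RNA and its 2 most deleted hairpins are shown because the deletions concentrate in these letters. Capitals mark nucleotides with 20 or more deletions, and everything else is in lower case.
5S rRNA, nucleotides 1 to 121: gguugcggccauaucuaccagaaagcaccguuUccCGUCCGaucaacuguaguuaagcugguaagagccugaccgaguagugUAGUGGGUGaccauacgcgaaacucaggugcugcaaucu
Helix III with loop C, nucleotides 25 to 53: gcaccguuUccCGUCCGaucaacuguagu
Helix IV with loop D, nucleotides 80 to 100: gugUAGUGGGUGaccauacgc

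Coverage rose along the RNA to a broad maximum over helix IV. The table holds 1696 cDNAs of the 5S rRNA, 0.703% of the 241334 mapped cDNAs of the library, and each covered 59.6 nucleotides of it on average. Hits, the number of cDNAs over a nucleotide, were lowest at G1, with 197, and highest at A84 and G85, with 1248 each. The median over the RNA was 853 hits. The 5′ end was thus covered by 11.6% of the cDNAs, the maximum by 73.6% and the 3′ end, U121 with 549 hits, by 32.4%. Most cDNAs therefore did not reach the 5′ end of the RNA.

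Deletions, which reverse transcriptase tends to leave at a cross-linked nucleotide, followed another course than the hits. They numbered 1388, or 1.37% of all hits, and 1097 of them lay at 16 of the 121 nucleotides. These 16 nucleotides fell into 2 stretches, one in loop C and one running through helix IV into loop D. At the other 105 nucleotides together there were 291 deletions, 0.343% of their hits. No deletion was found at 28 of these, and the median over the RNA was 2 deletions per nucleotide. Just above the limit of 20 stood G88, with 24 deletions, and just below it U54, with 19.

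**Figure D1:**
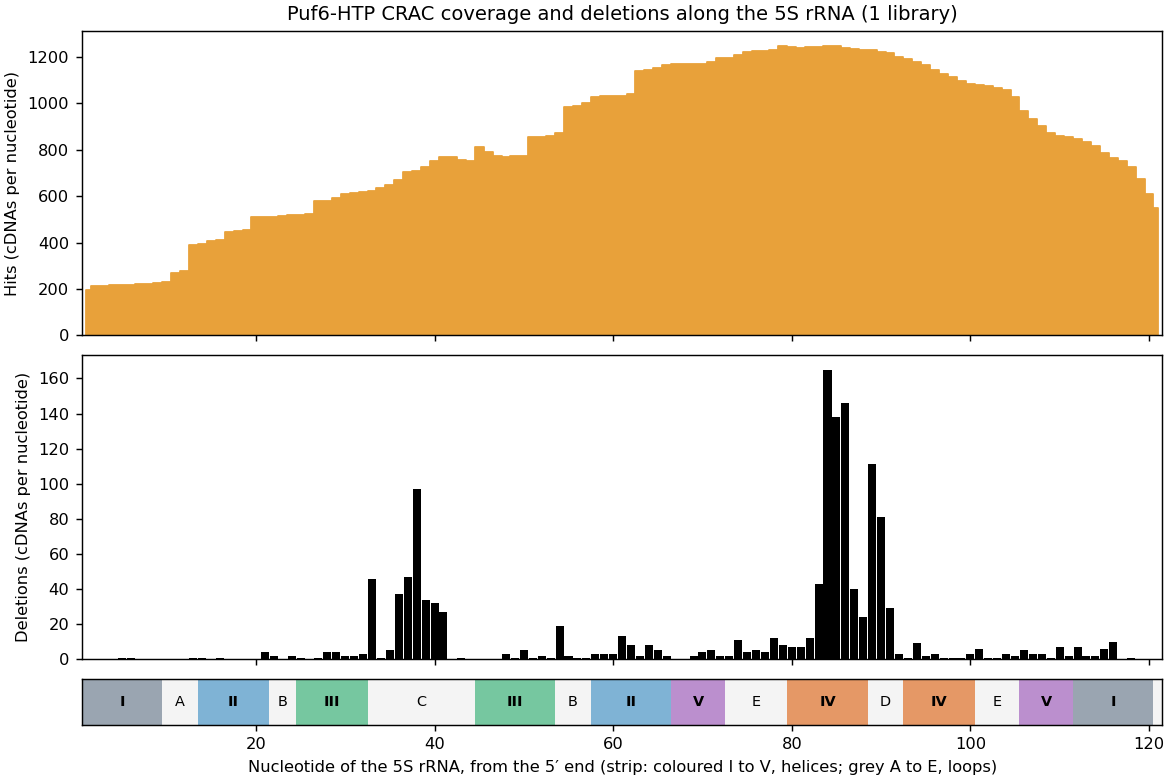
Hits (upper panel) and deletions (lower panel) of the 1 library, in cDNAs per nucleotide, against the position in the 5S rRNA, with helices I to V and loops A to E in the strip. Hits form 1 broad rise to 1248 at A84 and G85, whereas deletions form 2 narrow clusters, at nucleotides 33 to 41 and 83 to 91.

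Helix IV and loop D, the outer hairpin of the arm that starts with helix V, held most of the deletions. Their 21 nucleotides, 17.4% of the RNA, took 24.9% of the hits and 827 deletions, 59.6% of the total (Clopper-Pearson 95% interval 56.9 to 62.2%). A84 was deleted most often, in 165 of 1248 hits. This is a rate of 13.2% (Clopper-Pearson 95% interval 11.4 to 15.2%), at position 459759 of chromosome XII. U86 had 146 deletions in 1239 hits and G85, the single bulged nucleotide between these 2 in the fold, 138 in 1248. The 3 rates were 13.2% at A84, 11.1% at G85 and 11.8% at U86, and their intervals overlap, so that no order among them can be given.

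The counts of the cluster had sharp edges on both sides. Nucleotides 77 to 87 and 85 to 91 repeat, so a deletion of several bases can be aligned there in several ways. Whether the cluster is a contact of Puf6, and these edges its limits, was not tested. On the 5′ side G80 and U81 had 7 deletions each and G82 had 12, and U83, the next nucleotide, had 43. After U86 the count was 40 at G87 and 24 at G88. In loop D, a hairpin loop of 4 nucleotides with the sequence guga, G89 had 111 deletions, U90 had 81 and G91 had 29. A92, the last nucleotide of the loop, had 3, in 1201 hits. G89 continues the run of G that starts at G87 in helix IV, so its deletions cannot be divided between helix and loop. Without that run, loop D had 113 deletions, 8.14% of the total, and the 5′ strand of helix IV had 518.

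The 2 strands of helix IV differed. Nucleotides 80 to 88, the 5′ strand, had 582 deletions in 11164 hits, a rate of 5.21%. Nucleotides 93 to 100, the 3′ strand that pairs with them, had 21 deletions in 9099 hits, a rate of 0.231%. In all 8 base pairs of the helix the 5′ partner was deleted more often, with 444 deletions at the 5′ partners and 21 at the 3′ partners. Of these pairs, 6 lie outside runs of one base, and they had 380 and 11. A84 and its partner U96 had 165 and 3 deletions, and U86 and its partner A95 had 146 and 2. The hits of the strands were close but did not overlap, at 1230 to 1248 on the 5′ strand and 1085 to 1189 on the 3′ strand. In none of the other helices did the 5′ partner have the higher count at every pair. In helix I the 3′ partner had more deletions at 6 of 9 pairs and 3 pairs were tied, but there the 5′ partners had 197 to 225 hits and the 3′ partners 607 to 848.

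**Figure D2:**
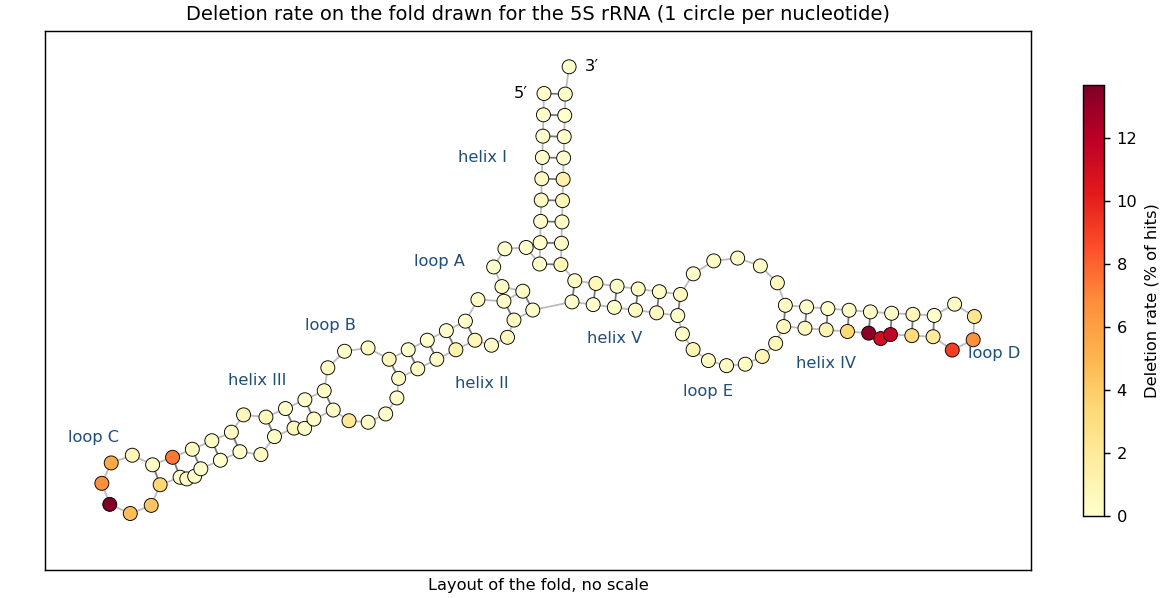
Each circle is a nucleotide of the 5S rRNA in the fold drawn here, coloured by its deletion rate in percent of hits, with lines for base pairs. The darkest circles are A84, G85 and U86 on 1 strand of helix IV, G89 and U90 in loop D, and U33, C36, G37 and U38 in loop C. Other nucleotides of these elements are paler, and helices I, II, III and V stay pale.

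Loop C, the hairpin loop at the end of helix III, was the other cluster. Its 12 nucleotides, 9.92% of the RNA, took 8.42% of the hits and 327 deletions, 23.6% of the total (Clopper-Pearson 95% interval 21.3 to 25.9%). U38 had 97 deletions in 710 hits, a rate of 13.7% (Clopper-Pearson 95% interval 11.2 to 16.4%), at position 459713. Its interval overlaps that of A84, so no order can be given between the 2. The other members of the cluster were U33 with 46 deletions, C36 with 37, G37 with 47, C39 with 34, C40 with 32 and G41 with 27. C34 and C35, between U33 and C36, had 1 and 5. In the fold drawn here U33 pairs with A42 and C34 with G41 inside loop C, so these nucleotides count as paired.

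The end of the cluster in loop C was abrupt in the counts. It fell at the end of nucleotides 35 to 41, a repeat in which a deletion of several bases has several placements. Whether this cluster is a contact of Puf6, and this edge its limit, was not tested. G41 was deleted in 3.51% of 769 hits, and the next nucleotide, A42, in 0 of 768. That count allows a rate of up to 0.391%, taking 3 counts as the limit. From A42 to C47 there was 1 deletion, at U43. Helix III itself, with 30 deletions in 11890 hits, had a rate of 0.252%, with at most 5 deletions, at U50.

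**Figure D3:**
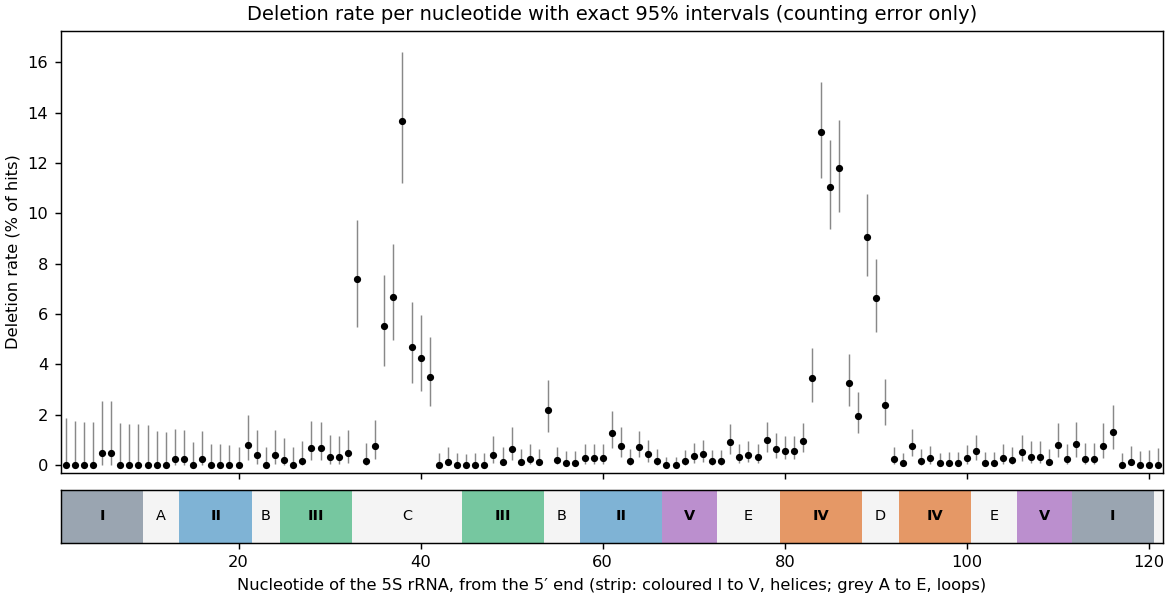
Deletion rate in percent of hits at each nucleotide (points), with exact 95% intervals (lines) that cover counting error only. The intervals of U38 (11.2 to 16.4%) and A84 (11.4 to 15.2%) overlap, and outside the 2 clusters the highest point is U54, at 2.18%.

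The remaining helices and loops were covered but seldom deleted. Loop E, next to helix IV, had a mean of 1154 hits per nucleotide and 59 deletions, a rate of 0.426%, with at most 12 deletions, at U78. Helix V had 1036 hits per nucleotide on average and a rate of 0.273%, with at most 7 deletions, at G110. Helix II had a rate of 0.397%, with 6 deletions in 3573 hits at nucleotides 14 to 21, or 0.168%, and 47 in 9768 at nucleotides 58 to 66, or 0.481%. G61 was its most deleted nucleotide, with 13. In loop B, U54 was deleted 19 times in 872 hits, at 2.18% the highest rate outside the 2 clusters. U54 ends a run of U that begins at U53 in helix III, so its deletions cannot be divided between helix and loop. Helix I had 30 deletions, a rate of 0.343%, and C116 held 10 of them. Loop A, the junction itself, had 1 deletion, at A13, in 1163 hits. Without helix IV, loop D and loop C, the other 88 nucleotides held 234 deletions, 16.9% of the total.

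**Figure D4:**
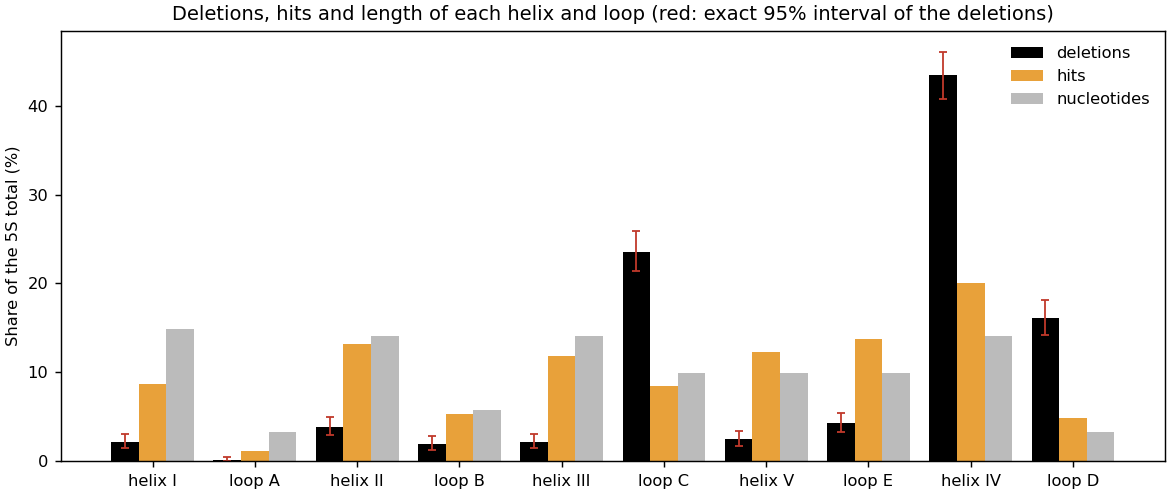
Share of the 5S total, in percent, of deletions (black, with exact 95% intervals in red), hits (orange) and nucleotides (grey) for each helix and loop, in the 1 library. Helix IV, loop D and loop C have a larger share of the deletions (43.4, 16.1 and 23.6%) than of the hits (20.1, 4.82 and 8.42%), and the other helices and loops a smaller one. The run of G from 87 to 89 is divided between helix IV and loop D as the table places it.

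The sequence of the helix IV cluster holds a tandem repeat. The letters UAGUG occur at nucleotides 78 to 82 and again at 83 to 87, shown here because the copies are identical and their deletions are not. Capitals mark the second copy in nucleotides 77 to 87.
Tandem UAGUG: guagugUAGUG
The second copy had 532 deletions, or 8.57% of its hits, and the first had 46, or 0.742%. The table does not give the length of a deletion. A cDNA that lacked 5 neighbouring bases here could be aligned in 7 ways with the same result, since nucleotides 77 to 87 repeat with a period of 5. In the same way nucleotides 35 to 41 of loop C repeat with a period of 4, and 85 to 91 of helix IV and loop D with a period of 4, with 4 placements each. Among deletions of 1 to 6 bases, 6 stretches of the RNA allowed 4 or more placements, and 4 of these lay in or across the 2 clusters. These stretches were looked for after the deletions had been seen, and whether long deletions contribute was not tested.

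The same holds for runs of one base, where the loss of any member leaves the same sequence. Of the 12 runs in the 5S rRNA with 5 or more deletions, the last nucleotide carried the most in 10. In the run of G from 87 to 89 the counts were 40, 24 and 111, and in the run of U from 31 to 33 they were 2, 3 and 46. In the run of C from 34 to 36 they were 1, 5 and 37. In the 35S table, whose gene lies on the minus strand of the chromosome, the first nucleotide carried the most in 24 of 25 such runs. RDN5-1 lies on the plus strand, and the part of the aligner in this order was not tested. The run of U begins in helix III, and without it loop C had 281 deletions, 20.2% of the total. High values at U33, C36 and G89, and the value at U54, are therefore values of their runs, not of a measured position. Summed over its run, GGG at 87 to 89 had 175 deletions, 14.2% of the 1232 hits at its best covered nucleotide. A cDNA lacking several of these bases would be counted several times, so this is not a share of cDNAs. A84, G85, U86, G37 and U38 stand in no run, but all lie in the repeats of several bases named above. A deletion of several bases has several placements there and would be counted at several nucleotides.

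Puf6 is, in the paper's account, the most diverged PUF protein of yeast. UGUA, the core of the element that PUF proteins bind in mRNAs, occurs at 2 places of the 5S rRNA. They are printed with 12 nucleotides each and the motif in capitals, since 1 of them ends at the most deleted nucleotide.
UGUA at nucleotides 81 to 84: guagUGUAgugg
UGUA at nucleotides 48 to 51: caacUGUAguua
At 81 to 84 the counts were 7 deletions at U81, 12 at G82, 43 at U83 and 165 at A84. At 48 to 51 they were 3 at U48, 1 at G49, 5 at U50 and 1 at A51, in 767 to 854 hits. The site at 81 to 84 thus had 4.57% of its hits deleted and the site at 48 to 51, with the same letters, 0.316%. The first of these lies across the 5′ edge of the cluster. AGUG at 84 to 87, which shares A84 with it, had 9.84% deleted, and AGUG at 79 to 82 had 0.684%. In the 35S table, which runs from the 18S to the 25S rRNA without the external spacers, 31.7% of the 5827 windows of 121 nucleotides hold at least 1 UGUA, and 5.59% at least 2. Of its 20 UGUA sites, 16 had 0 deletions, and no nucleotide of a site had more than 2. Depth limits these counts, as hits there reached at most 282. Whether Puf6 contacts UGUA in the 5S rRNA was not tested. The motif was searched on the RNA strand, and its reverse complement UACA occurs 0 times in the 5S rRNA. UUGU, described for Puf6 on ASH1 mRNA, occurs 0 times in it. In the 35S sequence UUGU has 41 sites, with hits of at most 326. Of these sites 31 had 0 deletions, and the highest count at a nucleotide of a site was 47.

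By base, 2.20% of the hits at U were deleted in the 5S rRNA, against 1.76% at G, 0.823% at A and 0.722% at C. A84 alone held 165 of the 217 deletions at A, and without it the rate at A was 0.207%. Outside nucleotides 33 to 41 and 83 to 91 the rates were 0.469% at U, 0.435% at G, 0.294% at C and 0.207% at A. Unpaired nucleotides of the fold were deleted in 1.91% of their hits and paired ones in 1.05%. Outside the 2 clusters these were 0.385% and 0.318%, and with the minimum free energy fold the order was turned there, at 0.293% for unpaired and 0.357% for paired nucleotides. Neighbouring nucleotides share cDNAs, so these differences carry no test.

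The hits did not rise smoothly but in steps, and the steps followed the sequence. The 9 largest rises from one nucleotide to the next, between 34 and 113 hits, all fell on an A that follows C or U, although a rise of 34 also occurred at G37. The largest was 113 hits, from U12 to A13 in loop A, and the next were 110 at A55 in loop B, 98 at A63 in helix II and 82 at A51 in helix III. Up to the maximum at A84, 11 such steps gave 63.9% of the total rise of 1051 hits, and the other 72 steps the rest. Their median rises were 58 and 4 hits. A rise means that more cDNAs begin than end there, so the left edge of the coverage follows where fragments began. In the extraction, RNA not covered by protein was removed with RNase, and the part of that step in the pattern was not tested. Steps at C-A and U-A were 12.5% of all 120 steps in the 5S rRNA and 9 of its 12 largest. In the 25S rRNA they were 10.3% of all steps and 34.5% of the 339 largest. After the maximum no step was a rise, and the steepest falls were 67 hits at C120, 58 at U106 and 58 at U121.

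**Figure D5:**
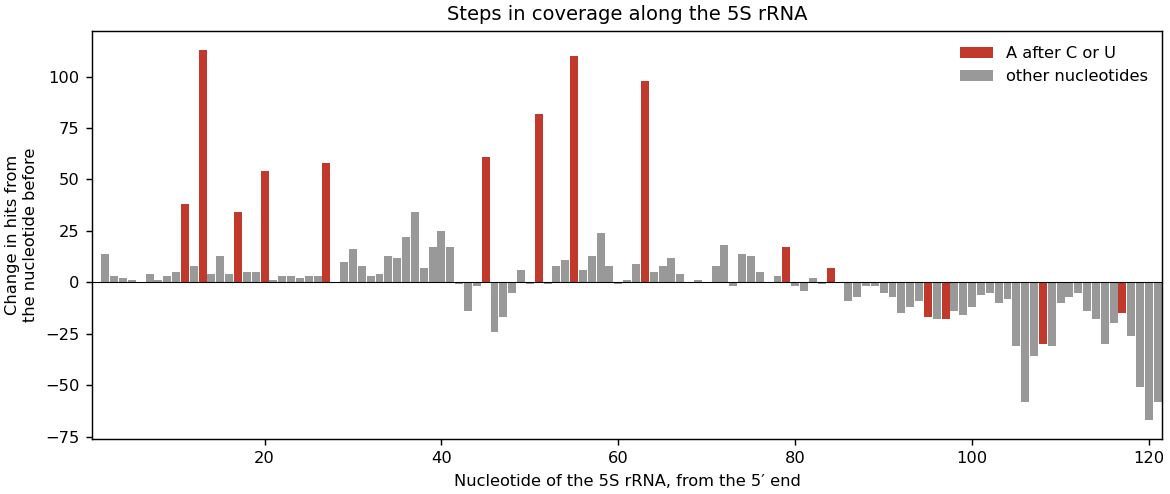
Change in hits from the nucleotide before, in cDNAs, along the 5S rRNA, with A after C or U in red and the other nucleotides in grey. The tallest bars, up to 113 hits at A13, are red, and after A84 every bar is at or below 0.

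High hits alone did not come with many deletions. Loop E and helix V, with hits between 853 and 1246 per nucleotide, had at most 12 deletions at a nucleotide. Hits at the 16 most deleted nucleotides lay a median of 0.50 hits above the mean of their neighbours, and at the other nucleotides 0.50 below, so the deleted cDNAs appear to be counted among the hits. The R64 genome annotates 6 copies of the 5S gene. Compared with the table, RDN5-6 had 0 differences and RDN5-2, RDN5-3, RDN5-4 and RDN5-5 had 3 each, at positions 118, 120 and 121. These 4 copies are annotated with 119 nucleotides against 121, so the differences include gaps of the alignment. None of the copies differed from nucleotide 33 to 44 or from 78 to 92, so the letters of both clusters are the same in every annotated gene. The sources used here do not say how reads were divided among the copies.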

How the data were processed

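CRAC libraries of cells with HTP-tagged Puf6 were aligned by the authors to R64-1-1.75 with NovoAlign and counted with pyPileup of pyCRAC. The signal deposited by the authors is unscaled coverage: hits count the sense cDNAs that span a nucleotide. The deposited deletion counts are cDNAs with a deletion at each nucleotide. Per the file headers at most 5000 cDNAs per gene were read, deletions were the only mutations kept, and no threshold on alignment quality was set. The limit was not reached for the 5S rRNA.

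Helices and loops were assigned from the textbook fold of eukaryotic 5S rRNA. Its minimum free energy fold was computed with RNAfold 2.7.2, and 33 pairs were shared by both. Rates give deletions as a percent of hits and carry exact 95% intervals after Clopper and Pearson. The interval was tested on simulated deletions with known rates, drawn independently at each nucleotide. That checks the calculation only, since shared cDNAs and deletions of several bases were not simulated. Pooled nucleotides share cDNAs, so pooled intervals are too narrow. No test was run, since 1 library of 1 condition was analysed. Named are the most deleted nucleotides, the highest and lowest hits, the ends and the most deleted nucleotide of helices and loops. Members, lists and limits were chosen with earlier results of these data known. The searches for repeats, runs, motifs and steps were made after the values were seen. Copies were aligned with Biopython 1.88. Calculations were done in Python 3.11.15 with scipy 1.17.1, pandas 2.3.3 and numpy 2.4.6, and plots in matplotlib 3.10.9.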

Additional observations from a re-analysis of the deposited data

How the results depend on the processing

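The highest deletion rate, 13.7% at U38, was the same with at least 50 hits, 12.02% with deletions added to the denominator, and 14.2%, at GGG from 87 to 89, with runs summed. The summed value can count a cDNA several times and is not a share of cDNAs. The share of deletions in helix IV with loop D was 59.6%, and 61.5% widened by 2 nucleotides. It was 54.1% without A84 and 24.9% by hits. In loop C it was 23.6%, and 23.9% widened, 26.7% without A84, 8.42% by hits and 20.2% without the run that crosses its limit. No run crosses the limits of helix IV with loop D. The rate at unpaired over paired nucleotides was 1.82, and became 1.38 with medians, 2.37 without A84 and 2.17 with the minimum free energy fold. Outside both clusters it was 1.21, and 0.819 with that fold as well, which turned the order. The rate at U over other bases was 1.93, and 1.423 with medians, 2.33 without A84, 1.95 outside runs and 1.53 outside both clusters. A84 lies outside loop C, is paired and is not U. Leaving it out could therefore only raise the loop C share and both ratios, and U38 was not left out in turn. The settings outside both clusters and without crossing runs were chosen after seeing the data. The causes were not tested. No paired analysis was possible because the tables hold 1 library, and so no replicate could be left out. Depth limits the 5′ end most, where 0 deletions at G1 in 197 hits allow a rate of up to 1.52%.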

Other observations

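Across the 121 nucleotides of the 5S rRNA, deletions and hits had a Pearson r of 0.288 and a Spearman rho of 0.582. Neighbouring points share cDNAs and all come from 1 library, so these are descriptions.

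The 6 most deleted nucleotides of the 5S rRNA together held over 50% of its deletions, and A84 alone held 11.9%. In the 25S rRNA 24.5% lay at the most deleted nucleotide. Of the 5S nucleotides 23.1% had 0 deletions, and of the 25S nucleotides 90.99%. The 25S table stops at 5000 cDNAs, so this share also follows the depth of each table.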
